A study of Mus musculus with 2 samples.

Results

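The genes described here encode the solute carriers that bring sugars, amino acids, small peptides and monocarboxylates such as lactate and butyrate across the membranes of the colon. They were chosen by family name alone (Slc1a, Slc2a, Slc3a, Slc5a, Slc6a, Slc7a, Slc15a, Slc16a, Slc36a, Slc38a and Slc43a). The rule uses no measured ratio, but the set of families was proposed with earlier results of these data known. The gene table held 107 such genes, 106 had a named probe on the arrays, and 70 of these 106 had a probe that the scanner software marked as well above background on 1 array or both, which is called detected here. The remaining 36 were detected on neither array and have no ratio.

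Whole-colon RNA of C57BL/6 mice was labelled with Cy3 and measured on one-colour Agilent expression arrays, 1 for each of 2 genotypes. The control was the Villin-Cre mouse (its array is called the control array), which carries Cre recombinase driven by the Villin promoter. The second genotype was Villin-Cre; EP4flox/flox (EP4 cKO), in which the same Cre deletes floxed sequence of Ptger4 in the intestinal epithelium only. Ptger4 encodes EP4, a receptor of prostaglandin E2. Both genotypes carried Cre, and the muscle, nerve, stromal and immune cells of the colon, in which this Cre is not driven, also gave RNA to the samples. The methods give an age of 8 weeks for the mice, and the labels say that 3 pools of colon tissue went into the RNA of an array. Since each genotype has a single array, nothing could be checked against replicates, no test was made and no p-value is given, and the values describe these arrays alone.

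Ptger4 itself did not separate the arrays. One of its probes gave a normalized signal of 6227 on the control array and 5661 on the array labelled EP4 cKO. The other probe gave 393 and 592, in the same order. Where these probes lie relative to the floxed part was not examined, so they do not check the labels, and the text writes "the array labelled EP4 cKO" throughout. Markers of the colon epithelium were bright on both arrays, including Krt8, Epcam, Vil1 and the goblet cell mucin Muc2. Of 8 small intestine enterocyte markers, Sis, Lct and Apoa4 were detected on neither array, and the 5 that were detected all had ratios above 0, 3 of them past 2-fold (Apob, Fabp6 and Treh). Of 6 fibroblast markers, all 5 with a value fell. The summed signal of all 6 was 12957 on the control array and 304 on the array labelled EP4 cKO. Of 6 enteroendocrine markers, 3 were more than 2-fold lower, and the summed signal went from 94450 to 47145. In RNA of whole colon, fewer cells of a type and less RNA per cell cannot be told apart. Whether the same part of the colon went into both arrays was not tested. The share of probes detected was 45.4% on the control array and 51.6% on the other.

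Solute carriers of these families differ in what drives them. Most Slc2a and Slc43a carriers let their substrates follow the gradient, Slc5a, Slc1a, Slc6a and Slc38a members mostly spend the sodium gradient, and Slc15a, Slc36a and most studied Slc16a members move protons with their substrate. Light chains of the Slc7a family work as exchangers once bound to a heavy chain of the Slc3a family. In the colon the best known roles are the uptake of butyrate, the main fuel of colonocytes, through Slc16a1 and Slc5a8, the export of lactate through Slc16a3, and the uptake of serotonin by the epithelium through Slc6a4.

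The 250 bases before the start site of 4 carriers are shown for the sequence context of the results below. Slc2a1 and Slc16a3 are the sugar and the lactate carrier with the largest rises, Slc16a9 is the carrier of the same family as Slc16a3 that fell, and Slc7a11 is the cystine carrier whose signal was detected only on the array labelled EP4 cKO. The sequences and coordinates are from RefSeq on GRCm38.p6. They run 5′ to 3′ on the strand of the gene, and capitals mark matches on either strand to the hypoxia core ACGTG, the core TGACG of the cAMP response element (CRE, TGACGTCA), the interferon element GAS (TTCNNNGAA) or the amino acid response element TGATGCAA.
Slc2a1, chr4:119108495-119108744, plus strand: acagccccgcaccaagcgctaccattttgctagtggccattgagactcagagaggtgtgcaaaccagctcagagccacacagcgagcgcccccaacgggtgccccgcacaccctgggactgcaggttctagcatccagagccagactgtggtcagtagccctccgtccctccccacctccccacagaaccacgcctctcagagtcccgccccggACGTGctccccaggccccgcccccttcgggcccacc
Slc16a3, chr11:120948817-120949066, plus strand: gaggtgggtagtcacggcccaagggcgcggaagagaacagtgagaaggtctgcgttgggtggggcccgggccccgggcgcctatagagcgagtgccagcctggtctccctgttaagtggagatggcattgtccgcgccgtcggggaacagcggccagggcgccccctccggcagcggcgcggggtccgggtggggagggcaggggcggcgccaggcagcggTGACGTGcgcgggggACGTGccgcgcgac
Slc7a11, chr3:50443614-50443863, minus strand: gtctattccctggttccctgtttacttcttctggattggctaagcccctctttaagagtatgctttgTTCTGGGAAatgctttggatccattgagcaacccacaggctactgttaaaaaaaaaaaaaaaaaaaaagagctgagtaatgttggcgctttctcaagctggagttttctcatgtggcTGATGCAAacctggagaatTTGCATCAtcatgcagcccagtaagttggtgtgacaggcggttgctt
Slc16a9, chr10:70245026-70245275, plus strand: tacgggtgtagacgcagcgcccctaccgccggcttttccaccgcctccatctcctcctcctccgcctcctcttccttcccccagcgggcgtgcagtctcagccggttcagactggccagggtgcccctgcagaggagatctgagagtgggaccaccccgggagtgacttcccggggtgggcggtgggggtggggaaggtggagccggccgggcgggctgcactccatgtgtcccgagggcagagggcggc
The window of Slc2a1 held 1 match to ACGTG. That of Slc16a3 held 2, the first of which overlaps its match to TGACG. The window of Slc7a11 held 2 matches to TGATGCAA, 1 on each strand, and 1 to GAS, and that of Slc16a9 held no match to any of the motifs, the full CRE and the interferon element ISRE (TTTC, any 2 bases, TTTC) included. Over the 69 start sites of the 53 carriers with a value that matched the promoter table, 21.7% held ACGTG, against 16.6% of all 32851 start sites. TGACG was found in 17.4% and 17.8%, GAS in 4.35% and 7.02%, TGATGCAA in 2.90% and 0.791%, and the full CRE in 1.45% and 1.55%. ISRE was found in 0 of the 69 and in 2.98% of all start sites. A match is a run of letters and says nothing on binding.

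Signals are given as normalized signals, meaning the deposited processed signal of a spot scaled so that the trimmed mean of each array is 2500. They can be set side by side between the arrays for 1 probe but not between probes. The log2 ratio is that of the array labelled EP4 cKO over the control array, and a carrier is said to rise or fall where its ratio passed 2-fold up or down. Where just 1 array detected a probe, the other side was held at that array's floor (125 on the control array, 57.8 on the array labelled EP4 cKO) or at its own signal where that was higher. Such a ratio is a lower bound on the change and is written as "at least". Where the bound did not exceed 1 the gene was counted at a log2 ratio of 0.

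Among the 70 carriers, 6 rose (8.57%), 8 fell (11.4%) and 56 stayed within 2-fold. Slc16a3, Slc2a1, Slc16a6, Slc3a1, Slc16a5 and Slc38a9 were the 6 that rose, and Slc2a4, Slc5a6, Slc38a11, Slc16a9, Slc6a12, Slc1a1 and Slc2a8 were among the 8 that fell. Over all 14669 genes with a value, the share past 2-fold was 4.86% for rises and 7.87% for falls. The median log2 ratio was -0.10 for the carriers and -0.10 for all genes. With probes detected on both arrays, 5 of 59 carriers rose (8.47%) and 7 fell (11.9%), against 4.03% and 6.23% of 12816 genes, and the median log2 ratio was -0.15 for the carriers and -0.15 for all genes. The split between rises and falls moved with the scaling, as did that of all genes (6.39% higher and 6.18% lower at the 75th percentile), and it was 9 against 5 after scaling to the 75th percentile, 4 against 2 after normexp background correction with quantile normalization, 10 against 4 after loess on mean signal, 8 against 5 with a trimmed mean over all spots, and 28 against 2 after scaling to the E1A control spots. Relative to the shift of the median of all genes, these splits were 7 against 6 at the 75th percentile, 3 against 3 after normexp, 9 against 5 after loess and 6 against 6 with the trimmed mean over all spots. The E1A scaling raised the median log2 ratio of all genes by 0.97, and 39.0% of all genes were more than 2-fold higher under it, so that relative to this shift the split was 7 against 5. With dim probes at their own signal the split was 11 against 33 over 106 carriers (31.1% lower, against 31.5% of all genes), and 13 against 6 relative to the shift of all genes. Slc16a3, Slc16a6 and Slc2a1 rose and Slc2a4 fell under each of the 9 alternative ways of computing a ratio, and Slc5a6 fell under each but the E1A scaling, where its log2 ratio was -0.61. These carriers have a single probe, detected on both arrays. Alternatives that change only which probes are used, or how dim ones are held, therefore return the same ratio. The 75th percentile, the trimmed mean over all spots and the E1A scaling each add the same amount to every such ratio. Only normexp and loess could move such ratios by differing amounts.

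**Figure D1:**
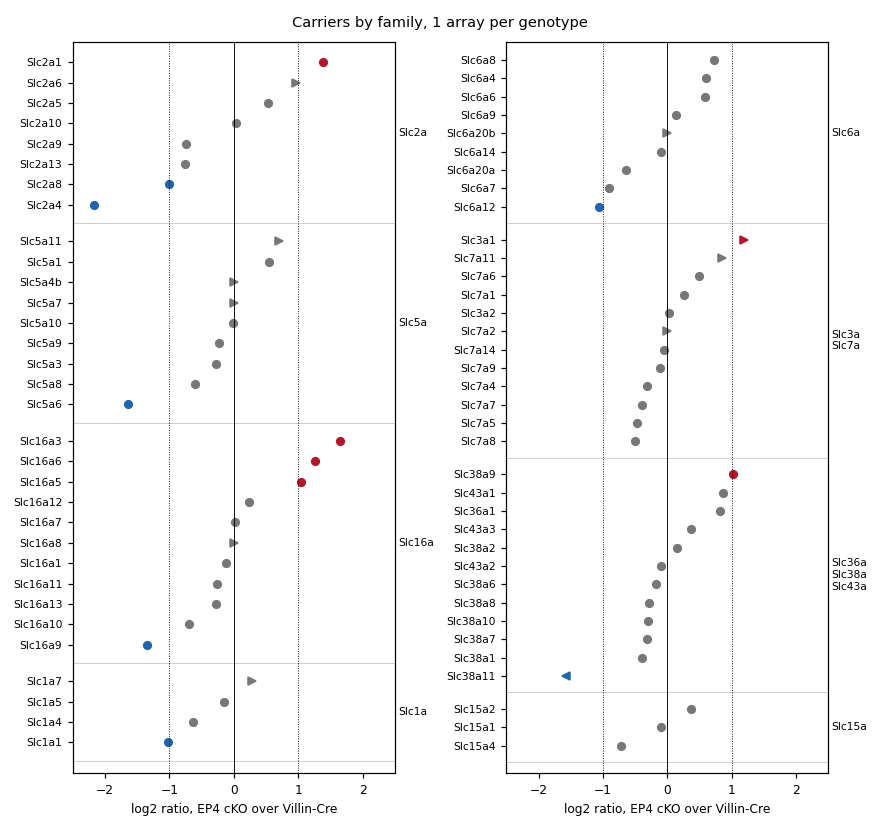
Log2 ratio of the array labelled EP4 cKO over the control array (x axis) for carriers with a value, grouped by family, with circles for probes detected on both arrays and triangles for bounds that point to the side on which the true ratio may lie. Red marks carriers more than 2-fold higher, blue those more than 2-fold lower, and the dotted lines are 2-fold, so that Slc16a3 at 1.66 and Slc2a4 at -2.18 are the ends of the range.

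The monocarboxylate carriers held the most rises, with 3 of 12 measured members higher and 1 lower. Slc16a3, the lactate exporter of cells that rely on glycolysis, had a signal of 1833 on the control array and 5778 on the array labelled EP4 cKO, which is 3.15-fold higher (log2 ratio 1.66). Slc16a6, which carries ketone bodies, went from 935 to 2240 (log2 ratio 1.26). Slc16a5, a carrier known mainly for the uptake of drugs such as bumetanide, went from 4895 to 10139 (log2 ratio 1.05). A second probe of Slc16a5 gave 0.88, and a dimmer probe (71.8 and 84.7) was detected only on the array labelled EP4 cKO and counted at 0, so that the mean of its 3 probes, 0.64, was within 2-fold. The other probes of these 3 carriers were detected on both arrays. Slc16a9, which has been linked to the transport of carnitine and creatine, had 1178 on the control array and 460 on the array labelled EP4 cKO, 2.56-fold lower (log2 ratio -1.36), and was within 2-fold after normexp (-0.88) and E1A scaling (-0.32).

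The other members of the family stayed within 2-fold. Slc16a1, which brings butyrate and lactate into colonocytes, had 34884 on the control array and 31937 on the array labelled EP4 cKO (log2 ratio -0.13). Slc16a11 had 5938 and 4965 (log2 ratio -0.26). Slc16a10, which carries aromatic amino acids, gave -0.69, while Slc16a7, Slc16a12 and Slc16a13 lay between -0.27 and 0.23. Slc16a8, a lactate carrier of the retina, was detected only on the array labelled EP4 cKO and its bound did not exceed 1. Slc16a4 and Slc16a14 were detected on neither array.

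Among the 8 measured sugar facilitators of the Slc2a family, 1 rose and 2 fell. Slc2a1, the widely expressed glucose carrier GLUT1, had 14842 on the control array and 38722 on the array labelled EP4 cKO, 2.61-fold higher (log2 ratio 1.38). Slc2a4, the insulin-responsive glucose carrier of muscle and fat, went the other way, from 1275 to 281, 4.53-fold lower (log2 ratio -2.18). This was the largest fall among the carriers under the main processing. After normexp the fall of Slc5a6 (-1.58) was larger than that of Slc2a4 (-1.42). Slc2a8, a glucose carrier kept inside the cell, had 406 and 201 (log2 ratio -1.01). It lay next to the line and was within 2-fold in 5 of 9 alternatives, with 0.02 under the E1A scaling, which raised the ratios of genes in general. Slc2a5, the fructose carrier, had 1119 and 1621 (log2 ratio 0.54). Slc2a13, the proton-coupled carrier of myo-inositol, had 7018 and 4165 (log2 ratio -0.75), and Slc2a9, a urate carrier, gave -0.74. Slc2a6 was detected only on the array labelled EP4 cKO, with 116 and 245, and was at least 1.96-fold higher. Its second probe (27.8 and 25.3) was detected on neither array. Slc2a2, the glucose carrier of liver and of the small intestine, and the neuronal glucose carrier Slc2a3 were detected on neither array, as were Slc2a7 and Slc2a12.

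Of the 9 measured sodium-coupled carriers of the Slc5a family, 1 fell and none rose. Slc5a6, which takes up biotin and pantothenate, had 14361 on the control array and 4607 on the array labelled EP4 cKO, 3.12-fold lower (log2 ratio -1.64). It is measured by 1 probe. Slc5a8, the sodium-coupled carrier of butyrate and other short-chain fatty acids, had 17004 and 11217 (log2 ratio -0.60). Slc5a1, the sodium-coupled glucose carrier SGLT1, had 1521 and 2211 (log2 ratio 0.54). The myo-inositol carrier Slc5a3 had 2680 and 2218 (log2 ratio -0.27, and -0.78 by a second probe), and Slc5a9 and Slc5a10 gave -0.23 and -0.01. Slc5a11, a further myo-inositol carrier, was detected only on the array labelled EP4 cKO, at least 1.62-fold higher. Its second probe (31.9 and 14.8) was detected on neither array. The bounds of Slc5a4b and of the choline carrier Slc5a7 did not exceed 1. The renal glucose carrier Slc5a2, the iodide carrier Slc5a5, Slc5a4a and Slc5a12 were detected on neither array.

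**Figure D2:**
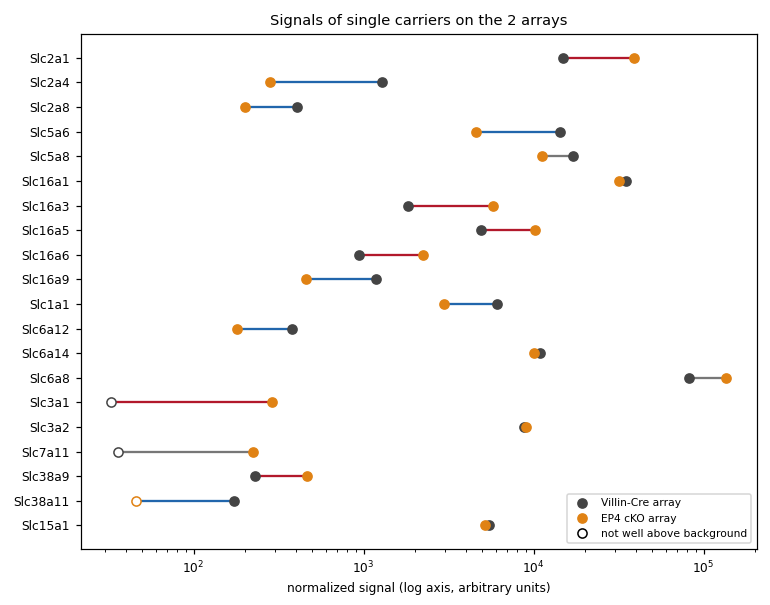
Normalized signal (x axis, log scale) of single carriers on the control array (dark) and the array labelled EP4 cKO (orange), with open circles where the signal was not detected and a red, blue or grey line for carriers that rose, fell or stayed within 2-fold. Slc16a1, Slc6a14, Slc3a2 and Slc15a1 nearly coincide on both arrays, while Slc2a1 went from 14842 to 38722 and Slc5a6 from 14361 to 4607.

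Of the 4 measured acidic and neutral amino acid carriers of the Slc1a family, 1 fell. Slc1a1, the carrier of glutamate, aspartate and cystine in epithelia and neurons, had 6079 on the control array and 2983 on the array labelled EP4 cKO (log2 ratio -1.03). A second probe gave -0.67 and the mean of its probes -0.85, and the call was lost in 6 of 9 alternatives, with 0.01 under the E1A scaling and its general shift. Slc1a5, the glutamine carrier ASCT2, had 11925 and 10740 (log2 ratio -0.15), and Slc1a4, a carrier of alanine, serine and cysteine, had 5765 and 3715 (log2 ratio -0.63). Slc1a7 was detected only on the array labelled EP4 cKO, at least 1.22-fold higher. The glial glutamate carriers Slc1a2 and Slc1a3, and Slc1a6, were detected on neither array.

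In the Slc6a family, which carries neurotransmitters, creatine, taurine and amino acids with sodium and chloride, 2 of 10 measured members fell and none rose. Among them Slc6a12, which carries betaine and GABA, had 377 on the control array and 180 on the array labelled EP4 cKO (log2 ratio -1.07) and was within 2-fold in 5 of 9 alternatives. Slc6a8, the creatine carrier, had 81858 and 135481 (log2 ratio 0.73), and its second probe gave 1.09. Slc6a4, the serotonin carrier, had 3858 and 5870 (log2 ratio 0.61). Slc6a6, the taurine carrier, gave 0.59 and 0.62 by its 2 probes. Slc6a14, which takes up neutral and cationic amino acids in the colon, had 10860 and 10107 (log2 ratio -0.10), and the glycine carrier Slc6a9 had 9061 and 9952 (log2 ratio 0.14). The proline carriers Slc6a7 and Slc6a20a gave -0.91 and -0.65. The bound of Slc6a20b did not exceed 1. Slc6a19, the main neutral amino acid carrier of the small intestine, was detected on neither array, and the same held for the other 9 Slc6a members, among them the noradrenaline carrier Slc6a2 and the dopamine carrier Slc6a3.

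The heavy chains of the Slc3a family and the Slc7a family, which holds light chains and cationic amino acid carriers, gave 1 rise and no fall among 12 measured members. Slc3a1, the heavy chain of the exchanger for cystine and cationic amino acids, was not detected on the control array (32.9) and had 287 on the array labelled EP4 cKO, at least 2.29-fold higher. After normexp its log2 ratio was 0.94. Its light chain Slc7a9 had 852 and 789 (log2 ratio -0.11). Slc3a2, the heavy chain shared by most other light chains, had 8800 and 9013 (log2 ratio 0.03), and its second probe gave -0.46. Slc7a11, the light chain that takes up cystine in exchange for glutamate, had 35.8 and 225 and was detected only on the array labelled EP4 cKO, at least 1.80-fold higher. Held at its own signal its log2 ratio was 2.65, and after loess the bound was 1.70. A second probe of Slc7a11 (31.5 and 42.5) was detected on neither array and gave no ratio. Slc7a5, the light chain for large neutral amino acids in dividing cells, had 239 and 173 (log2 ratio -0.46), and its epithelial relative Slc7a8 gave -0.50. Slc7a7, the light chain that releases cationic amino acids at the basolateral side, had 16193 and 12283 (log2 ratio -0.40), Slc7a6 gave 0.49, and the arginine and lysine carrier Slc7a1 had 5231 and 6300 (log2 ratio 0.27). The less known Slc7a4 and Slc7a14 gave -0.31 and -0.06, and the bound of Slc7a2, another cationic amino acid carrier, did not exceed 1. The 5 other Slc7a members were detected on neither array.

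The 3 measured peptide carriers stayed within 2-fold. Slc15a1, the intestinal carrier of di- and tripeptides, had 5491 on the control array and 5153 on the array labelled EP4 cKO (log2 ratio -0.09). Slc15a2, its relative of kidney and brain, had 412 and 531 (log2 ratio 0.37), and Slc15a4, a carrier of histidine and peptides in lysosomes, had 14703 and 8918 (log2 ratio -0.72). Slc15a3 and Slc15a5 were detected on neither array.

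Among 12 measured members of the Slc36a, Slc38a and Slc43a families, 1 rose and 1 fell. Slc38a9, the lysosomal arginine sensor of the mTORC1 pathway, had 229 on the control array and 466 on the array labelled EP4 cKO (log2 ratio 1.03, and 0.82 after normexp). Slc38a11, an amino acid carrier with little known function, had 172 and 46.0, was not detected on the array labelled EP4 cKO, and was at least 2.97-fold lower. This fall was past 2-fold in 4 of the 8 alternatives that gave it a value. It was within 2-fold with 1 floor for both arrays (-0.46), after loess (-0.86), after normexp (-0.40) and under the E1A scaling (-0.54). The glutamine carriers Slc38a1 and Slc38a2 had 10326 and 7890 (log2 ratio -0.39) and 8363 and 9307 (log2 ratio 0.15). Slc36a1, the proton-coupled carrier of small neutral amino acids, had 3771 and 6646 (log2 ratio 0.82). For Slc43a1, a carrier of branched-chain and aromatic amino acids, the brighter probe gave 0.87 and the second -0.93, so no direction can be given. Slc43a2 and Slc43a3 gave -0.10 and 0.37, and Slc38a6, Slc38a7, Slc38a8 and Slc38a10 lay between -0.31 and -0.18. Slc36a2, Slc36a3, Slc36a4, Slc38a3, Slc38a4 and Slc38a5 were detected on neither array.

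Among the 11 carriers with 2 or more probes detected on both arrays, the log2 ratios of the brightest and the second probe differed by a median of 0.30, and for 2 of them (Slc3a2 and Slc43a1) the signs were opposite. Over all 4103 such genes the median difference was 0.19 and 23.6% had opposite signs. Several of the carriers that fell, such as Slc38a11, Slc6a12 and Slc2a8, had low signals, and ratios over all probes ran lower at low signal. The median log2 ratio was -0.55 over the dimmest 2474 of 24734 probes detected on both arrays and -0.10 over the brightest 2474.

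Genes that work with the carriers were counted from lists made by hand. Over all genes with a value, 4.86% rose and 7.87% fell. Lists this short, chosen with earlier results known, cannot show that a list moved as a whole. Of 8 measured partner proteins, 2 fell and none rose. Among them the peptidase Anpep had 3856 on the control array and 1859 on the array labelled EP4 cKO (log2 ratio -1.05). Bsg, the chaperone of Slc16a1 and Slc16a3, had 17266 and 19858 (log2 ratio 0.20). The bound of Emb, the chaperone of Slc16a7, did not exceed 1. Slc9a3r1, a scaffold of apical carriers, gave 0.95, Txnip and Arrdc4, which take glucose carriers from the membrane, gave -0.24 and 0.30, and Arl6ip5, which binds Slc1a1, gave -0.21.

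Of 15 measured genes of the amino acid response, the program of Atf4 that raises amino acid synthesis and uptake, 2 rose and none fell. Chac1, which degrades glutathione, had 117 and 1371 and was at least 10.9-fold higher. Trib3, a feedback inhibitor of the response, was at least 3.27-fold higher. Asns and Psat1, which make asparagine and serine, gave log2 ratios of 0.92 and 0.92. Phgdh, Eif4ebp1, Cebpb, Atf5, Psph, Ddit3 and Aldh18a1 lay between 0.05 and 0.50, Atf4 gave 0.00, and Vldlr, Sesn2 and Nupr1 lay between -0.51 and -0.28.

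Of 11 measured genes of short-chain fatty acid and lactate use, 2 fell and none rose. Among them Ldhb, the lactate dehydrogenase subunit of oxidative tissues, had 249 and 46.2 and was at least 4.31-fold lower. Ldha, the subunit of glycolytic tissues, had 395103 and 482861 (log2 ratio 0.29). Acads, which oxidizes butyrate, gave -0.59, the acetate-activating enzymes Acss1 and Acss2 gave -0.40 and -0.59, and the ketone body enzymes Oxct1 and Bdh1 gave 0.07 and -0.32. The fatty acid receptors Ffar2 and Ffar3 gave 0.15 and -0.29.

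Of 12 measured genes of arginine and tryptophan use, 3 rose and 2 fell. Ido1, which degrades tryptophan and is induced by interferon, had 25.7 and 6931 and was at least 55.3-fold higher. Nos2, the inducible nitric oxide synthase that consumes arginine, had 1856 and 6536 (log2 ratio 1.82), and Wars, which charges tRNA with tryptophan, had 39281 and 86392 (log2 ratio 1.14). Oat, the mitochondrial ornithine aminotransferase, had 54821 and 17110 (log2 ratio -1.68), and Tph1, which makes serotonin from tryptophan in enterochromaffin cells, had 914 and 371 (log2 ratio -1.30). Srm, Odc1, Sms, Ass1, Asl and Tdo2 lay between -0.44 and 0.48, and the bound of Arg2 did not exceed 1.

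**Figure D3:**
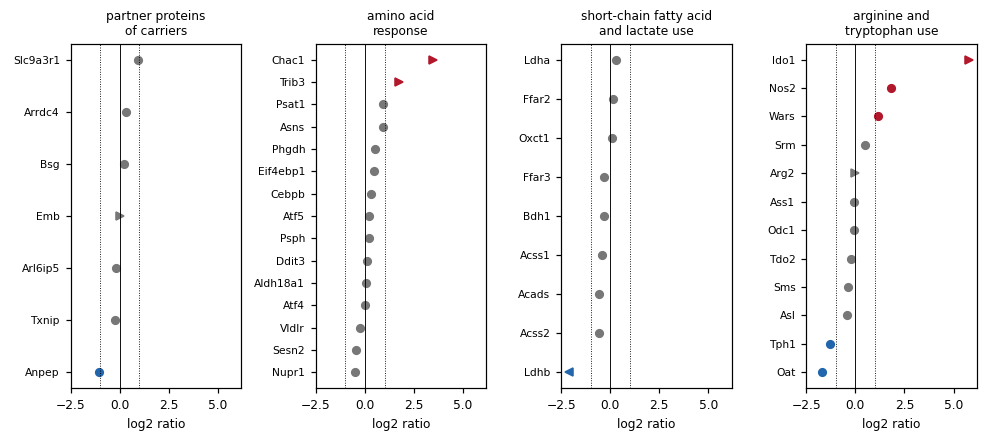
Log2 ratio of the array labelled EP4 cKO over the control array (x axes) for measured genes of 4 lists made by hand, with triangles for bounds, red and blue for genes past 2-fold, and dotted lines at 2-fold. Ido1 at 5.79 and Chac1 at 3.45 stand farthest to the right, both as lower bounds.

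Markers of several cell types moved between the arrays beside these carriers. Summed over each list, colonocyte markers went from 1638286 to 2203187 (2 of 10 rose, Krt20 and Aqp8), and from 1255409 to 1218866 without these 2 genes. Goblet markers went from 1514915 to 1942744 (1 of 7 rose, Clca1), and from 1219389 to 1209308 without Clca1. The small intestine enterocyte markers, of which Fabp6 gave 1.73 and Apob 1.02, summed to 17148 and 41527 over all 8, and to 8522 and 13767 without the 3 that rose. Leaving out only genes that rose lowers the second sum against the first by construction. The sums also add different probes, and bright ones such as Krt8 (663603 and 686670) weigh most. They therefore do not show whether the share of these cells was equal on the arrays. The fibroblast markers with a value ran from -3.15 to -5.77, bounds included, and Dcn, a proteoglycan of connective tissue, had 6006 and 110. Smooth muscle markers summed to 30148 and 45500, with 1 of 5 lower (Cnn1, -2.73) and Acta2 at 0.62. Of the markers of enteric neurons and glia, Uchl1 fell (-1.43), Elavl4 gave -0.82, and the other 5, with Ret and Sox10 among them, were detected on neither array. Immune and endothelial lists held 1 gene past 2-fold, the T cell gene Cd3g (1.28). The enteroendocrine markers Chga, Chgb and Neurod1 gave -1.53, -1.22 and -1.35. The part of these shifts in the ratios of Slc2a4, Slc38a11 and the other carriers was not tested.

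**Figure D4:**
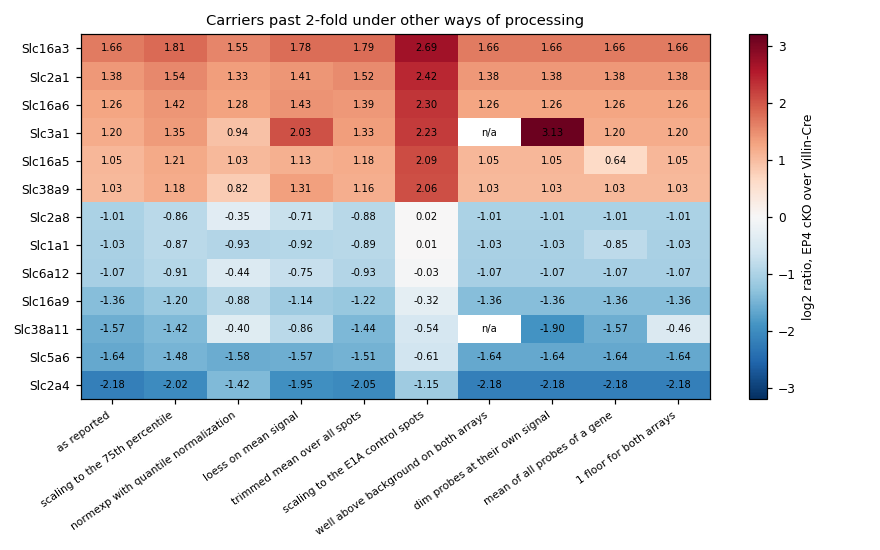
Log2 ratio of carriers past 2-fold (rows) as reported and under 9 alternative ways of processing (columns), from blue (lower on the array labelled EP4 cKO) to red (higher), with n/a where the alternative leaves the carrier out. Slc16a3, Slc2a1, Slc16a6 and Slc2a4 stayed past 2-fold in every column, while Slc1a1 and Slc2a8 were at 0.01 and 0.02 under the E1A scaling, which moved the median of all genes by 0.97. For a carrier with a single probe detected on both arrays, columns that change only the probes or the floor repeat the reported value.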

How the data were processed

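The authors deposited the scanner output of 2 one-colour arrays (per the file headers, Feature Extraction 12.0.3.1, where the submitters' processing notes name 11.5.1.1). The intensity used was the deposited processed signal of each spot, background-subtracted and detrended by the software and not yet scaled between arrays. The deposited flags for control, outlier, saturated and well above background spots were used as given, and 0 gene spots were saturated. Outlier spots on either array were left out, spots of a probe were averaged, and each array was scaled to a trimmed mean of 2500 without 2% of the probes at each end, as the study's methods describe. A background correction or scaling can move all ratios together, which is why alternatives were run.

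Accessions of 32989 of 56593 probes (58.3%) matched the RefSeq gene table (GRCm38.p6). The arrays refer to an older assembly, so coordinates are given for promoters only. Each gene was represented by its brightest probe, and genes whose probes were dim on both arrays were left out of ratios. Genes named are the carriers past 2-fold, the 3 brightest carriers of each substrate group, 16 carriers and 4 lists set by hand. Other carriers were named to account for every member, and markers were named where a count rests on them. The values of some single genes are counted but not reported here. The members and lists were chosen with earlier results of these data known.

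Alternatives were the 75th percentile, normexp (offset 50, on the median spot signal in place of the mean, which was not used here) with quantile normalization, loess (span 0.3), a trimmed mean over all spots, the E1A control spots, only probes detected on both arrays, dim probes at their own signal, the mean of probes, 1 floor, and thresholds of 3-fold and 1.5-fold. The steps were tested on simulated data. Precision is limited by the number of arrays, of which none could be left out. Analyses used limma 3.58.1 in R 4.3.3, and, in Python 3.11.15, pandas 2.3.3, numpy 2.4.6 and, for loess, statsmodels 0.14.6, with figures from matplotlib 3.10.9.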

Additional observations from a re-analysis of the deposited data

How the results depend on the processing

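The carriers that rose and fell numbered 6 and 8, with a median log2 ratio of -0.10. These became 9 and 5 with a median of 0.0029 after scaling to the 75th percentile, 4 and 2 with 0 after normexp with quantile normalization, 10 and 4 with 0.076 after loess, and 8 and 5 with 0 for a trimmed mean over all spots. Scaling to the E1A control spots moved the median of all genes by 0.97 and gave 28 and 2 with a median of 0.87, or 7 and 5 relative to that shift. Loess moved the median of all genes by 0.13 and gave 9 and 5 relative to it, and the 75th percentile, normexp and the trimmed mean over all spots moved it by 0.10 and gave 7 and 6, 3 and 3, and 6 and 6 relative to it. Only probes detected on both arrays gave 5 and 7 with a median of -0.15, and dim probes at their own signal gave 11 and 33 with a median of -0.31 over 106 carriers, where 31.5% of all genes were lower, or 13 and 6 relative to the shift of all genes. The mean of probes gave 5 and 7 and 1 floor gave 6 and 7. A 3-fold threshold left 1 and 3 (1.43% and 4.29%, against 2.21% and 3.63% of all genes), so that the share of rises was then below that of all genes, and a 1.5-fold threshold gave 14 and 17 (20.0% and 24.3%, against 9.84% and 18.6%). The sign turned for Slc1a1 (0.0082) and Slc2a8 (0.022) under the E1A scaling. By its construction this scaling adds the same amount to every ratio measured on both arrays, and so brings such a ratio near -1 close to 0. Among the carriers, the bounds above or below 0 moved by that amount too. Bounds counted at 0 moved by less or not at all. Of 124 values of the 14 carriers past 2-fold, 97 stayed past it in the same direction. Many of these values could not differ. For a carrier with a single probe detected on both arrays, alternatives that change only the probes or the floor repeat the main ratio. Slc2a6, Slc43a1, Slc5a11, Slc5a7, Slc6a20b and Slc7a11 passed 2-fold under some alternative other than E1A. The cause of these moves was not tested. Signal over background limits the 36 carriers that have no ratio, and the ratios of 11 others are bounds, since 10 were detected only on the array labelled EP4 cKO and 1 only on the control array. No paired analysis was possible because each genotype has 1 array.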
